A study of Oryza sativa with 7 samples.

Results

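Transcript levels of wild-type rice were compared between the unelongated culm, taken from seedlings 20 days old, and the shoot of seedlings 2 weeks old. The genes taken were those listed both in the culm table of mir156abckl and its wild type and in the shoot table, which gave 21828 of the 26168 genes listed in any of the 4 tables of the series. The series sequenced messenger RNA from mir156 mutants of rice, which lack several of the genes for the microRNA miR156, and from the wild type (Nipponbare, a japonica cultivar). The culm was sampled in the wild type, in mir156abckl and in mir156defghi, and the shoot in the wild type and in the decuple mutant mir156abcdfghikl. Plants grew in a paddy field, and the methods give 3 biological repeats per group. The tables hold 1 FPKM value per group (fragments per kilobase of transcript, scaled to the size of the library, hence a level per length) and no value per repeat, so no error, interval or test can be given for any difference between culm and shoot. The tissues also differed in age, and their values were scaled in separate tables, so that tissue, age and scaling cannot be told apart. In such bulk samples, fewer cells of a type and less RNA per cell cannot be told apart either.

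Before its internodes extend, the culm of a rice seedling is a compact base that holds the stacked nodes, the shoot apical meristem, axillary buds that can become tillers, and the origins of the crown roots, and it lives on sugar sent from the leaves. The seedling shoot consists mostly of leaf blades and sheaths, whose green cells carry the photosynthetic apparatus and export sugar. Genes for photosynthesis are known as the main transcripts of leaves, and class I KNOX homeobox genes, which keep meristem cells undetermined, are known to be shut off in leaves.

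For 18521 genes with at least 1 FPKM in both tissues, the median ratio of culm to shoot was 1.31, or 0.38 on the log2 scale. All ratios below were divided by this median, and the resulting centred log2 ratio is positive where a gene was higher in the culm relative to that median. A gene was counted as higher or lower where its centred ratio was at least 4-fold, with at least 1 FPKM in the higher tissue. Of 20950 genes compared, 1815 were at least 4-fold higher in the wild-type culm (8.66%) and 2276 were at least 4-fold lower (10.9%). The genes past the limit in either direction made up 19.5%. Without the centring, 2468 were higher and 1781 lower, so that the side holding more genes depends on the scaling between the tables. For genes with at least 1 FPKM in both tissues, the middle 50 percent of the centred log2 ratios ran from -0.78 to 0.62, and the 5th and 95th percentiles were -3.12 and 1.86. The long tail thus lay on the side of the shoot. The ranks of the genes, which the scaling of a table cannot change, had a Spearman correlation of 0.683 across the 20950 genes, given as a description since genes are not replicates.

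Differences between groups of 1 tissue give a yardstick for these counts. In mir156abckl culm against wild-type culm, 2.78% of 21081 genes were past 4-fold after the same centring, and in mir156defghi culm against wild-type culm 1.49% of 20946. The rank correlations were 0.945 and 0.957. The shoots stood apart from this. In mir156abcdfghikl shoot against wild-type shoot, 22.4% of 20999 genes were past 4-fold, with a rank correlation of 0.688, a share no smaller than the 19.5% between wild-type culm and wild-type shoot. For this reason the values of the mutants are given beside the main results. The mir156abckl culm is set against the mir156abcdfghikl shoot as a second pair of culm and shoot (the mutant pair). It shares no sample with the wild-type pair. The paper reports that growth of mir156abcdfghikl was severely retarded at the seedling stage, so its shoot is not a like second shoot. Throughout the mutant pair, genotype, growth and tissue cannot be told apart.

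**Figure D1:**
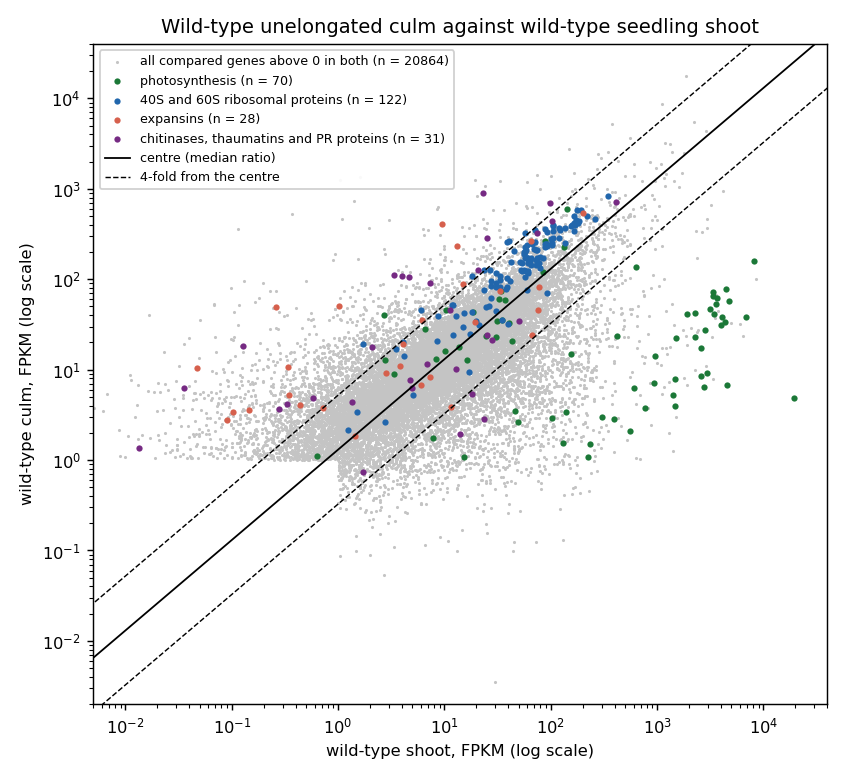
FPKM in wild-type culm (vertical, log scale) against wild-type shoot (horizontal, log scale), 1 point per gene above 0 in both tissues. The solid line is the median ratio and the dashed lines lie 4-fold from it. Photosynthesis genes lie far to the lower right, ribosomal protein genes just above the solid line, and many expansin and defence genes above the upper dashed line.

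The labels were checked with genes that mark tissues. OSH1, the KNOX gene of the shoot meristem, had 29.9 FPKM in the wild-type culm, OSH15 had 99.9 FPKM, OSH71 66.1 FPKM, OSH6 51.6 FPKM and OSH3 13 FPKM. These 5 genes were listed in the culm tables and not in the shoot table, so no ratio was formed. OSH43, the sixth KNOX gene, was listed for the shoot and not for the culm, at 0.0573 FPKM in the wild type. Of the root markers, RCc3, a lipid transfer protein gene of roots, had 119 FPKM in the wild-type culm and was listed at 0 in the wild-type shoot. The silicon importer Lsi1 had 26.1 FPKM in the culm and 12.8 in the shoot, and the iron transporter IRT1 had 2.15 and 2.64. The silicon exporter Lsi2 (10.7 FPKM), the nitrate transporter NRT2.1 (1.26 FPKM) and the crown root genes WOX11 (9.09 FPKM) and CRL1 (1.48 FPKM) were listed for the culm and not for the shoot. The 3 root markers listed for both tissues summed to 147 FPKM in the wild-type culm and 15.4 in the wild-type shoot. This sum rested mostly on RCc3, the only 1 of the 3 past 4-fold. Lsi1 had a centred log2 ratio of 0.65 and IRT1 of -0.68, so the root markers did not all lie on 1 side. CRL5, another crown root gene, was listed for neither tissue. The part of root genes in the results was not tested. Of 20 genes described as glutelin, prolamin or oleosin, which mark seeds, 2 were compared, with 11.6 FPKM in the culm and 3.45 in the shoot in sum.

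The photosystem and antenna classes had the lowest medians of the 46 classes, which were formed from keywords in the gene descriptions. All 17 genes described as chlorophyll a/b binding proteins, which hold the antenna pigments of the photosystems, were at least 4-fold lower in the culm, with centred log2 ratios from -9.79 to -4.11 and a median of -6.73, against a median of 0.08 over all compared genes. Together they summed to 634 FPKM in the wild-type culm, against 50102 FPKM in the wild-type shoot. Among 18 photosystem subunit genes, 16 were lower and none was higher, and the median was -6.88. Carbon fixation genes were less uniform, with 13 of 35 lower, 1 higher, 16 above 0 and a median of -0.35, which was -0.20 in the mutant pair. The 3 classes, 70 genes in all, made up 0.45% of the summed FPKM of the wild-type culm and 14.4% of that of the wild-type shoot. The share was 0.469% in mir156abckl culm, 0.548% in mir156defghi culm and 2.53% in mir156abcdfghikl shoot. The mutant shoot thus lay between the 3 culms, which were all below 1%, and the wild-type shoot.

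The most abundant transcript of the wild-type shoot came from LOC_Os12g17600, a gene for the small subunit of Rubisco, the enzyme that fixes carbon dioxide (chromosome 12, 10080397 to 10081661, TIGR release 7). It was at 4.82 FPKM in the culm of the wild type, against 19505 FPKM in its shoot, and ranked 15387th and 1st of the 21828 genes. A second small-subunit gene, LOC_Os12g19470, had 6.35 FPKM in the culm and 2782 in the shoot. Carbonic anhydrase (LOC_Os01g45274), which supplies carbon dioxide to the chloroplast, had 99.4 FPKM in the culm and 8544 in the shoot, and plastocyanin (LOC_Os06g01210), the copper protein that carries electrons to photosystem I, 31.9 and 5988 FPKM. The H protein of the glycine cleavage system (LOC_Os10g37180), which works in photorespiration, was listed at 1.28 FPKM in the culm and 1426 in the shoot. GLK1 and GLK2, transcription factors that switch on chloroplast genes, were lower as well. GLK1 had 17 FPKM in the wild-type culm and 117 in the wild-type shoot, and GLK2 had 7.13 and 48.9, which is 8.98-fold and 8.96-fold lower after centring.

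Some genes of 1 family parted, shown here with members named for their abundance or their extreme ratios. Of the photosystem genes, LOC_Os08g10020, for the 10 kDa polypeptide of photosystem II, had 38.0 FPKM in the culm and 6803 in the shoot, whereas LOC_Os07g05360, which has the same description, had 32.9 and 40.4. Fructose-bisphosphate aldolase works both in carbon fixation in the chloroplast and in sugar breakdown in the cytosol. Its gene LOC_Os11g07020 had 78.9 FPKM in the culm and 4454 in the shoot, and its gene LOC_Os01g67860 had 605 and 143. Ribosomal proteins of the 30S and 50S type serve plastids and mitochondria. Of their 19 genes, 7 were lower (36.8%) and 2 higher (10.5%), beside 10.9% and 8.66% of all genes. The 50S protein L31 (LOC_Os01g44210) had 27.9 FPKM in the culm and 482 in the shoot, and the 30S protein S16 (LOC_Os08g40610) had 63.3 and 9.82. Of the 46 classes, 33 had members past 4-fold in both directions. With 8.66% of all genes higher and 10.9% lower, classes of many genes can hold both, so this count does not set the classes apart.

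Genes for the cytosolic ribosome were higher in the culm as a group, by a modest step. Of 123 genes for 40S and 60S ribosomal proteins, 116 had a positive centred log2 ratio, and the median was 1.03. Only 8 were at least 4-fold higher (6.5%, below the 8.66% of all genes) and 0 were lower. They made up 3.36% of the summed FPKM of the wild-type culm and 1.05% of that of the wild-type shoot. This share was 3.22% in mir156abckl culm and 3.65% in mir156abcdfghikl shoot, where the median over the 123 genes was -0.20, so the difference was not present in the mutant pair. Near-identical copies of ribosomal protein genes may have split their reads, and 1 of the 123 was listed at 0 in the shoot. Core histone genes, which are transcribed when DNA is copied, did not follow. Of 27 genes, 0 were past 4-fold in either direction, beside 19.5% of all genes, and 21 lay below 0, with a median of -0.27. They made up 0.231% of the culm and 0.196% of the shoot in the wild type, against 1.38% in mir156abcdfghikl shoot. In the mutant pair 14 of them were lower, beside 6.48% of all genes in that pair, with a median of -2.05. Genes of DNA replication had 1 of 35 higher (2.86%) and 0 lower, beside 8.66% and 10.9% of all genes. Their median was 0.39, and -0.96 in the mutant pair.

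**Figure D2:**
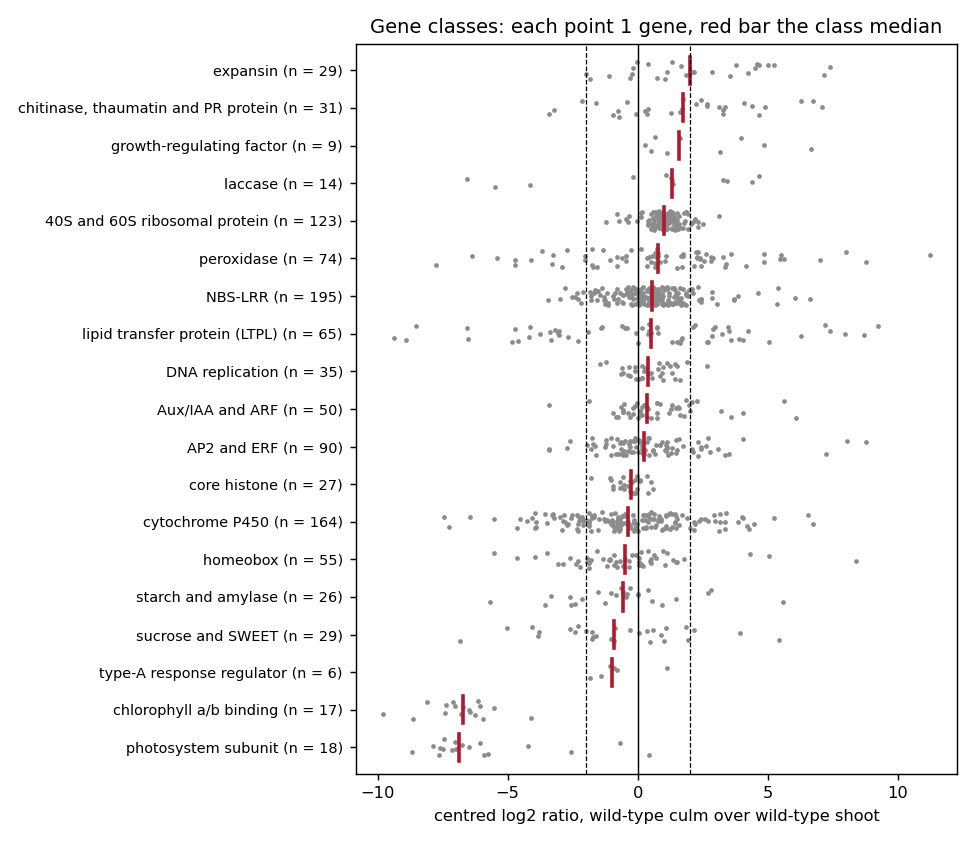
Centred log2 ratio of wild-type culm over wild-type shoot (horizontal) for the genes of 19 classes, 1 point per gene, with the class median as a red bar and dashed lines at 4-fold. The photosystem and chlorophyll a/b binding classes lie apart on the left, with medians of -6.88 and -6.73, and expansins have the highest median, 2.03. Genes listed at 0 in 1 tissue are counted in n and in the median but not drawn.

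Expansins, proteins that loosen the cell wall and let cells extend, were the class with the highest median among the 46. Of 29 expansin genes, 15 were at least 4-fold higher in the culm and 0 lower, 51.7% against 8.66% of all genes, with a median of 2.03. LOC_Os03g44290 had 10.4 FPKM in the wild-type culm, against 0.0472 in the wild-type shoot, and LOC_Os03g01260 had 13 FPKM and was listed at 0 in the shoot. The most abundant expansin of either tissue, LOC_Os10g40720, stayed inside the limit, with 539 FPKM in the culm and 201 in the shoot. In the mutant pair 5 of the 29 were higher, beside 5.7% of all genes in that pair. LOC_Os03g44290 had 19.5 FPKM in mir156abckl culm and 25.1 in mir156abcdfghikl shoot. Growth-regulating factors (GRF), transcription factors that keep cells of young organs dividing and that the microRNA miR396 represses, showed the same order. All 9 GRF genes had a positive centred log2 ratio, 4 were at least 4-fold higher (44.4%), and the median was 1.61, or 0.988 with 1 FPKM added to both tissues. The largest, LOC_Os03g51970, had 12.1 FPKM in the wild-type culm and 0.0915 in the wild-type shoot, but 16.6 in mir156abckl culm and 23.6 in mir156abcdfghikl shoot. Of the GRF genes, 0 were higher and 1 lower in the mutant pair, beside 5.7% and 6.48% of all genes there, with a median of -0.80.

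The targets of miR156 are SPL genes, transcription factors that restrain tillering and promote the adult phase. Of 11 target genes, 10 were listed for both tissues and 9 reached 1 FPKM. Of these 9, 8 had a positive centred log2 ratio, and the median was 0.56, against 0.08 over all genes. At least 4-fold higher in the culm were 2 (22.2%) and lower 0, beside 8.66% and 10.9% of all genes. IPA1 (SPL14, chromosome 8, 25274448 to 25278696), the best known regulator of plant architecture among them, had 14.2 FPKM in the wild-type culm and 1.07 in the wild-type shoot, 10.1-fold higher after centring. SPL17 had 2.62 and 0.379 FPKM, and SPL12, the most abundant in the culm, 70.5 and 16.8 FPKM, a centred log2 ratio of 1.69. SPL18 alone was negative, at -0.33, with 2.55 and 2.45 FPKM. IPA1 had 20.8 FPKM in mir156abckl culm, 68.2 in mir156defghi culm and 33.8 in mir156abcdfghikl shoot, which thus lay between the mutant culms. With mir156abckl culm, the median of the 9 genes in the mutant pair was -0.63. With mir156defghi culm, SPL3 (130 FPKM, against 82.5 in mir156abcdfghikl shoot) and SPL12 (99.7, against 64.1) stayed above the shoot in FPKM. The mutant groups lack different MIR156 genes, so genotype and tissue cannot be told apart in that pair. SPL7 was listed for the shoot alone, at 0.0813 FPKM.

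**Figure D3:**
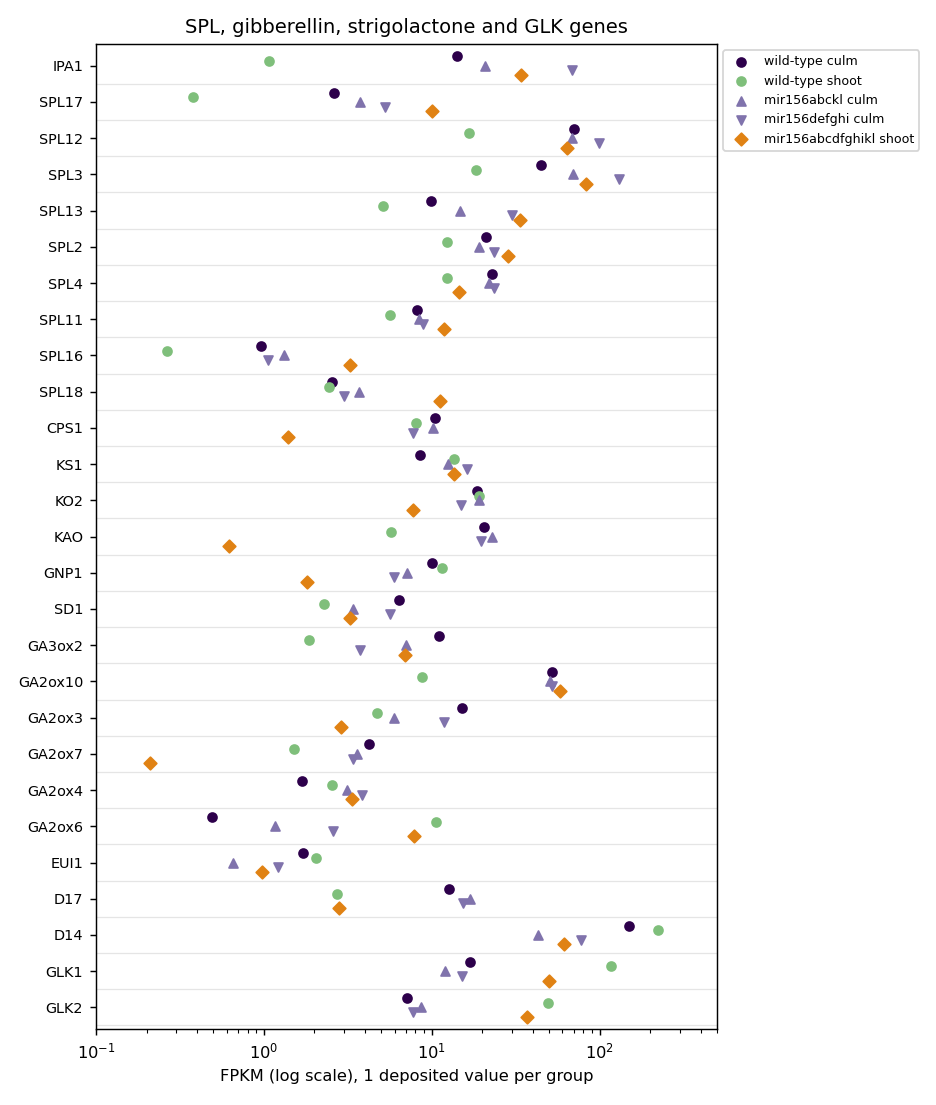
FPKM (log scale) of 10 SPL genes, the gibberellin genes, D17, D14, GLK1 and GLK2, with 1 point per group, wild-type culm above wild-type shoot in each row. Wild-type shoots lie below wild-type culms for IPA1, SPL17 and SPL12 and above them for GA2ox6, GLK1 and GLK2, and the mutant shoot lies above all culms for SPL2, SPL11, SPL13, SPL16, SPL17 and SPL18.

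Gibberellin (GA) makes stems elongate. It is built from geranylgeranyl diphosphate by CPS1 and KS1, then by KO2 and KAO, and the last steps are taken by GA20-oxidases (SD1, GNP1) and the GA3-oxidase GA3ox2. Of 7 biosynthetic genes, 1 was past 4-fold, on the higher side (14.3%, beside 8.66% of all genes). This was GA3ox2, with 11.0 FPKM in the wild-type culm and 1.87 in the wild-type shoot, 4.52-fold higher after centring. KAO had 20.5 and 5.71 FPKM and SD1 6.35 and 2.27 FPKM, with centred log2 ratios of 1.46 and 1.10. The early gene KS1 lay the other way, at -1.05, with 8.55 FPKM in the culm and 13.5 in the shoot. GA20ox4 was at 3.72 FPKM in the wild-type shoot and was missing from the culm table used for ratios. The other culm table gave it 0.504 FPKM in the wild-type culm. GNP1 had 10.01 and 11.52 FPKM, a centred log2 ratio of -0.59, so the genes of the late steps did not all lie on 1 side. The median of the 7 was -0.02. For GA3ox2 the mutant pair gave 6.98 FPKM in mir156abckl culm and 6.89 in mir156abcdfghikl shoot.

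Of 6 genes for GA deactivation compared, 1 was higher and 1 lower (16.7% each, beside 8.66% and 10.9% of all genes). Their median was 0.24, with 3 above 0 and 3 below. GA2ox10, a GA2-oxidase gene, had 52.3 FPKM in the wild-type culm and 8.76 in the wild-type shoot, 4.57-fold higher after centring. GA2ox6 had 0.49 FPKM in the culm and 10.6 in the shoot, 28.3-fold lower. GA2ox3 had 15.2 and 4.74 FPKM, GA2ox7 4.23 and 1.5 FPKM, and GA2ox4 1.68 and 2.54 FPKM, a centred log2 ratio of -0.98. EUI1, a cytochrome P450 that inactivates GA by epoxidation, had 1.71 and 2.03 FPKM. GA2ox8 (5.92 FPKM) and GA2ox1 (2.90 FPKM) were listed for the culm and not for the shoot. GA2ox9 had 0.463 FPKM in the wild-type culm, in the mir156defghi table alone, and 0.873 in the wild-type shoot. GA2ox6 stayed lower in the mutant pair, with 1.17 FPKM in mir156abckl culm and 7.81 in mir156abcdfghikl shoot, whereas GA2ox10 had 50.3 and 58.3. GA signaling genes differed less. The repressor SLR1 had 144 FPKM in the culm and 97.0 in the shoot, the receptor GID1 84.8 and 43.6, SPY 39.9 and 24.9, and GID2, an F-box protein gene that the files describe as a 14-3-3 protein, 126 and 154, and 0 of the 4 were past 4-fold.

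Genes that govern branching were read next, since axillary buds sit in the culm. TB1, a TCP transcription factor that holds buds dormant, had 5.72 FPKM in the wild-type culm, and D10, an enzyme of strigolactone synthesis, 10.8 FPKM, and neither was listed for the shoot. D17, which acts in the same pathway, had 12.6 FPKM in the culm and 2.72 in the shoot, a centred log2 ratio of 1.83. The strigolactone receptor D14 lay the other way, with 150 FPKM in the culm and 222 in the shoot. D3, the F-box protein of the receptor complex, had 10.5 and 6.39 FPKM, and D53, the repressor it removes, 78.7 and 45.6 FPKM. Of these 4 genes listed for both tissues, 0 were past 4-fold. MOC1, LAX1 and D27, the other genes of this list, were listed for neither the culm nor the shoot.

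Among transcription factor classes, 18 of 90 AP2 and ERF genes (20.0%) were at least 4-fold higher in the culm and 4 lower, and 15 of 64 bHLH genes (23.4%) were higher and 7 lower, beside 8.66% and 10.9% of all genes. LOC_Os04g55970, an AP2 gene described as AINTEGUMENTA, the name of an Arabidopsis gene that promotes organ growth, had 11.1 FPKM in the wild-type culm and 0.0321 in the wild-type shoot. The bHLH gene LOC_Os03g21970 had 19.6 and 0.272 FPKM, and the MADS-box gene LOC_Os08g02070 (OsMADS26) 81.8 and 12.2 FPKM. Homeobox genes leaned to the shoot, with 3 of 55 higher and 10 lower, although the 5 KNOX genes of the culm are outside this count because the shoot table does not list them. LOC_Os03g10210 was the homeobox gene with the highest ratio, with 52.4 FPKM in the wild-type culm and 0.118 in the wild-type shoot, and it stayed higher in the mutant pair, at 22.4 FPKM in mir156abckl culm and 3.72 in mir156abcdfghikl shoot. LOC_Os06g01934 was the homeobox gene with the lowest, with 2.45 and 85.0 FPKM in the wild type. Of Aux/IAA and ARF genes, which carry the auxin response, 8 of 50 were higher and 1 lower. OsIAA16 (LOC_Os05g09480) had 50.8 FPKM in the culm and 2.36 in the shoot, and OsIAA12 (LOC_Os03g43410) 37.3 and 3.11 FPKM. The 6 type-A response regulator genes, which cytokinin induces, had a median of -0.99 with 0 past 4-fold, beside 19.5% of all genes. The mutant pair had a median of 2.03 with 3 higher, beside 5.7% of all genes in that pair. This class thus changed side between the pairs.

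Sugar genes are given here by the most abundant and the most extreme members of their classes. Opposite directions among them follow from that choice, and members between them are not shown. Sucrose synthase splits sucrose where sugar is used, and its gene LOC_Os03g28330 had 585 FPKM in the wild-type culm and 28.9 in the wild-type shoot, 15.5-fold higher after centring. Sucrose-phosphate synthase makes sucrose in leaves, and LOC_Os11g12810 had 2.89 FPKM in the culm and 72.6 in the shoot. Of the nodulin MtN3 genes, the family of the SWEET sugar exporters, LOC_Os05g12320 had 359 and 6.35 FPKM, and LOC_Os05g35140 had 0.74 and 64.0 FPKM. Over the class of 29 sucrose and SWEET genes, 3 were higher (10.3%) and 8 lower (27.6%), beside 8.66% and 10.9% of all genes. Glucose-1-phosphate adenylyltransferase takes the step that commits sugar to starch. Its gene LOC_Os05g50380 had 57.6 FPKM in the culm and 6.27 in the shoot, and LOC_Os03g52460 had 2.89 and 114 FPKM. Starch synthase III (LOC_Os08g09230) had 13 and 1.52 FPKM, and the starch synthase gene LOC_Os07g22930 22.8 and 176 FPKM. The mutant pair kept the SWEET pair apart, with LOC_Os05g12320 at 379 FPKM in mir156abckl culm and 5.07 in mir156abcdfghikl shoot and LOC_Os05g35140 at 0.153 and 6.6. It did not keep the order for 3 of the genes named here. Sucrose synthase LOC_Os03g28330 had 588 FPKM in mir156abckl culm and 1426 in mir156abcdfghikl shoot, LOC_Os05g50380 had 70.4 and 82.1, and sucrose-phosphate synthase LOC_Os11g12810 had 3.17 and 2.32.

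Cell wall genes gave a mixed picture. Of 74 genes described as peroxidases, 28 were higher (37.8%) and 13 lower (17.6%), beside 8.66% and 10.9% of all genes. LOC_Os04g59260 (chromosome 4, 35245106 to 35246738) was at 360 FPKM in the culm of the wild type and at 0.113 in its shoot, the highest ratio of all genes above 0 in both tissues with at least 10 FPKM. At the other end, the peroxidase gene LOC_Os04g51300 had 0.90 and 147 FPKM. Of 14 laccase genes, whose enzymes polymerise lignin, 6 were higher (42.9%) and 3 lower (21.4%), and of 41 genes for lignin precursors and dirigent proteins 7 were higher (17.1%) and 11 lower (26.8%). The phenylalanine ammonia-lyase gene LOC_Os02g41630, the entry to that pathway, had 2556 FPKM in the culm and 1377 in the shoot, and its copy LOC_Os12g33610 had 2.53 and 199 FPKM. The cellulose synthases of the secondary wall differed little, with 73.9 and 42.3 FPKM for CESA4, 62.5 and 31.1 FPKM for CESA7, and 64.4 and 27.7 FPKM for CESA9.

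Defence genes were among the most abundant of the culm. Of 31 genes for chitinases, thaumatins and pathogenesis-related (PR) proteins, 15 were at least 4-fold higher in the culm (48.4%, against 8.66% of all genes) and 3 lower (9.68%, against 10.9%), with a median of 1.73, and they summed to 4141 FPKM in the wild-type culm and 980 in the wild-type shoot. The PR protein gene LOC_Os03g18850, of the Bet v I family, had 907 FPKM in the culm and 23.3 in the shoot. The thionin-like peptide gene LOC_Os07g24830 had 1337 and 1.62 FPKM, and the Bowman-Birk trypsin inhibitor gene BBTI5 (LOC_Os01g03360) 520 and 0.365 FPKM. THION6 (LOC_Os06g32020), a thionin gene, had 611 FPKM in the culm and was not listed for the shoot. The sum of the 31 genes was lower in the mutant culms, at 1640 FPKM in mir156abckl and 2357 in mir156defghi, so this part of the wild-type culm profile varied between culms of different genotype. In mir156abcdfghikl shoot they summed to 1340 FPKM. Genes of the NBS-LRR type, intracellular immune receptors, had 19 of 195 members higher (9.74%) and 9 lower (4.62%), with 137 above 0 and a median of 0.54, against 0.08 over all genes.

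Neighbouring genes were then compared along the chromosomes. Of the 1815 higher genes, 454 (25%) had an adjacent compared gene that was also higher, against 16.3% of all compared genes, and for lower genes the shares were 26.4% and 20.3%. There were 5 runs of at least 5 adjacent higher genes and 4 of lower genes. The longest higher run held 6 genes on chromosome 4, between 5318059 and 5486773. These are genes of momilactone synthesis, the diterpenoid phytoalexin of rice, and they were named after their values had been seen. LOC_Os04g09900 and LOC_Os04g10060, described as ent-kaurene synthases, close the diterpene rings. LOC_Os04g09920 and LOC_Os04g10160 are cytochromes P450, and LOC_Os04g10000 and LOC_Os04g10010 are dehydrogenase genes that the files describe by their likeness to maize tasselseed-2. LOC_Os04g09900 had 78.4 FPKM in the wild-type culm and 10.3 in the wild-type shoot, LOC_Os04g09920 63.4 and 1.28 FPKM, and LOC_Os04g10060 12.8 and 0.682 FPKM. Their centred log2 ratios ran from 2.29 to 5.24. In the mutants all 6 genes were lower in each tissue, LOC_Os04g09900 having 8.11 FPKM in mir156abckl culm, 25.9 in mir156defghi culm and 0.0883 in mir156abcdfghikl shoot. Culm stayed above shoot in the mutant pair, with centred log2 ratios from 3.13 to 8.31.

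**Figure D4:**
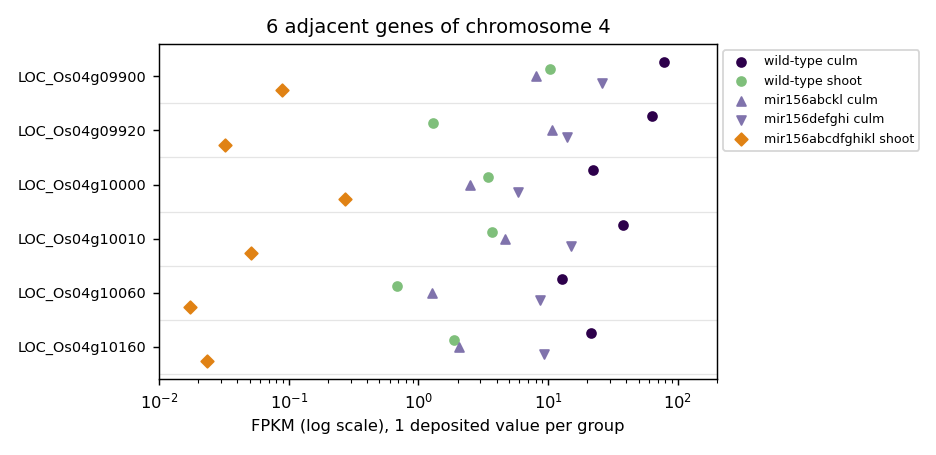
FPKM (log scale) of the 6 adjacent momilactone genes, 1 point per group, wild-type culm above wild-type shoot in each row. For each gene the wild-type culm is the highest point and the mir156abcdfghikl shoot the lowest.

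A second higher run held glucan endo-1,3-beta-glucosidase genes, whose enzymes attack fungal walls and callose, beside DUF26 receptor kinase genes on chromosome 7 (21155349 to 21247832). LOC_Os07g35480 had 368 FPKM in the wild-type culm and 1.95 in the wild-type shoot there. The longest lower run held 7 genes on chromosome 12 (732977 to 779942), among them 4 lipid transfer protein genes. LTPL14 (LOC_Os12g02340) had 6.75 FPKM in the culm and 1911 in the shoot, and LTPL12 (LOC_Os12g02320) 337 and 2627 FPKM. A lower run of 5 genes on chromosome 11 (703047 to 737188) also held lipid transfer protein genes followed by a chalcone isomerase and an elongation factor P gene, with LTPL9 (LOC_Os11g02424) at 29.1 and 2067 FPKM. The ends of these chromosomes are known to carry near-identical copies, so these values are uncertain. Lipid transfer proteins, which carry wax and cutin precursors to surfaces, otherwise moved both ways, with 24 of 65 higher (36.9%) and 20 lower (30.8%), beside 8.66% and 10.9% of all genes. On chromosome 2, RCc3, given above, is followed by LTPL113 (LOC_Os02g44320), which had 0.123 FPKM in the culm and 45.2 in the shoot.

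The most abundant transcripts of the tissues were different. Of the 10 most abundant genes of each, 0 were shared, and of the 100 most abundant 22 were. Of the 100 of the wild-type shoot, 76 were at least 4-fold lower in the culm, and of the 100 of the wild-type culm, 39 were at least 4-fold higher. The first of the culm was a metallothionein gene, LOC_Os01g74300, a small metal-binding protein, with 17775 FPKM in the wild-type culm and 1887 in the wild-type shoot. Next came LOC_Os01g45470, an expressed protein of no stated function, with 8729 and 1121 FPKM. The DnaK chaperone gene LOC_Os11g47760 had 2760 and 148 FPKM, and the gene for translationally controlled tumor protein, LOC_Os11g43900, 2571 and 347 FPKM. These 4 genes were abundant in each culm group, the metallothionein having 24565 FPKM in mir156abckl and 20332 in mir156defghi. After Rubisco and carbonic anhydrase, the shoot was led by the chlorophyll a/b binding gene LOC_Os01g41710, with 160 FPKM in the culm and 8235 in the shoot. The top 10 took 8.37% of the FPKM sum in the wild-type culm, 9.29% in the wild-type shoot and 3.41% in mir156abcdfghikl shoot.

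At the extremes, among genes above 0 in both tissues with at least 10 FPKM in the higher, the 10 highest centred log2 ratios ran from 9.06 to 11.25 and the 10 lowest from -13.45 to -9.36. Beside the peroxidase, thionin and inhibitor genes given above, the highest held the ENOD93 genes LOC_Os06g04990, with 39.9 FPKM in the culm and 0.0165 in the shoot, and LOC_Os06g05020, with 35.2 and 0.0506. They also held the SCP-like extracellular protein gene LOC_Os10g11500, with 1252 and 1.04 FPKM, and LTPL129 (LOC_Os06g43600), with 79.0 and 0.099. The lowest was LOC_Os07g23150, of a transferase family, with 0.00349 FPKM in the culm and 29.9 in the shoot. The Rubisco gene and the H protein gene given above came next. The 10 lowest also held 2 HAD phosphatase genes of chromosome 5, LOC_Os05g10210 with 0.131 and 129 FPKM and LOC_Os05g09704 with 0.124 and 72.8. In the mutant pair, 8 of the 10 highest and 10 of the 10 lowest were past 4-fold the same way. The exceptions were LTPL129, with 122 FPKM in mir156abckl culm and 112 in mir156abcdfghikl shoot, and LOC_Os06g04990, with 24.4 and 14.6.

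Across all genes, the mutant pair had fewer genes past the limit, 1204 higher (5.7%) and 1367 lower (6.48%) of 21105, which is 12.2% in either direction. Of the 1815 genes higher in the wild-type pair, 520 were also past 4-fold higher in the mutant pair (28.7% of the wild-type genes, 43.2% of the mutant-pair genes) and 70 were past 4-fold lower. Of the 2276 lower genes, 784 were also past 4-fold lower (34.4% of the wild-type genes, 57.4% of the mutant-pair genes) and 26 were past 4-fold higher. The sign was the same for 70.2% of the higher and 88.8% of the lower genes. For the higher genes the median centred log2 ratio was 3.01 in the wild-type pair and 0.85 in the mutant pair. For the lower genes it was -3.16 and -1.49. These genes were chosen for passing 4-fold in the wild-type pair. Smaller medians in another pair follow from that choice and cannot be read as a difference between the pairs.

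**Figure D5:**
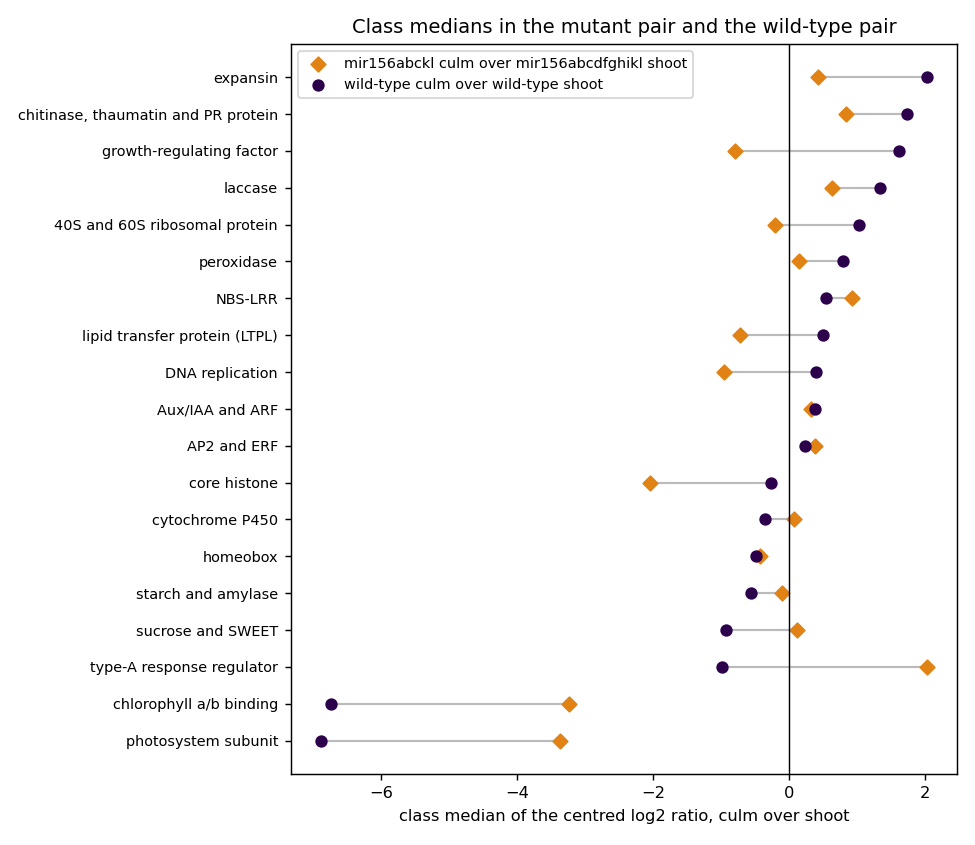
Median centred log2 ratio of culm over shoot for the 19 classes, in the pair mir156abckl culm and mir156abcdfghikl shoot (diamonds) and in the wild-type pair (circles). The photosynthesis classes keep their side. Their medians are -3.37 and -3.23 in the mutant pair and -6.88 and -6.73 in the wild-type pair. Growth-regulating factors, ribosomal proteins, DNA replication genes, lipid transfer proteins and type-A response regulators change side. Sucrose and SWEET genes and cytochrome P450 genes do so as well, with mutant-pair medians of 0.11 and 0.08.

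Other conditions of sampling were read from the data where genes bear on them. Clock genes depend on the hour, which is not given in the sources used here. LHY, which peaks near dawn, had 76.3 FPKM in the wild-type culm and 360 in the wild-type shoot, a centred log2 ratio of -2.62, and PRR95 had 31.7 and 89.8 FPKM. GI, an evening gene, had 375 and 247 FPKM. Of 7 clock genes, 1 was past 4-fold, on the lower side (14.3%, beside 10.9% of all genes). The part of the sampling hour in the results was not tested. Among housekeeping genes, the ubiquitin fusion gene UBQ had 344 FPKM in the culm and 147 in the shoot, EF1a 161 and 68.5, and ACT1 132 and 71.1, with centred log2 ratios from 0.51 to 0.85. Retrotransposon genes lay near the 8.66% and 10.9% of all genes, with 29 of 274 higher (10.6%) and 25 lower (9.12%). With the compared genes split into 3 equal bins by mean FPKM, 15.0% were higher and 6.62% lower in the low bin, 5.73% and 9.24% in the middle bin, and 5.24% and 16.7% in the high bin. In the low bin the higher calls rest on small shoot values, and 82 genes with at least 1 FPKM in the culm were listed at 0 in the shoot, against 4 the other way.

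The comparison leaves out genes that are in only 1 of the tables it used. For the wild type, 1753 genes were listed for the culm and not for the shoot, 1041 of them with at least 1 FPKM and 153 with at least 10. There were 1455 genes in the shoot table and not in that culm table, of which 780 had at least 1 FPKM and 206 at least 10. The mir156defghi culm table lists 111 of these 1455, and 20 of the 111 had at least 10 FPKM in the wild-type shoot. The most abundant of the culm after THION6 was LOC_Os03g15340, with a plastocyanin-like domain, at 500 FPKM, and hevein-type HEV3 (LOC_Os04g09390) had 383 FPKM. The most abundant of the shoot was a terpene synthase gene, LOC_Os08g04500, at 1192 FPKM, and an aquaporin gene, LOC_Os09g36930, had 421 FPKM.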

How the data were processed

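The authors built TruSeq Stranded mRNA libraries from 3 biological repeats per group, filtered the reads and mapped them with HISAT2 on TIGR release 7 of the rice genome. FPKM came from Cufflinks (version 2.2.1 in the submitters' processing notes) and the comparisons from cuffdiff. The deposited tables hold 1 FPKM value per group, which is the authors' value over the repeats, and each comparison was scaled on its own. They also hold log2 ratios of mutant to wild type, p-values and q-values, which were not used. No counts are given, so the depth is unknown and no count model was fitted.

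Culm values came from the mir156abckl table and shoot values from the mir156abcdfghikl table. Ratios were divided by the median ratio of genes that reached 1 FPKM in each tissue, with no pseudocount, in Python 3.11.15 with numpy 2.4.6 and pandas 2.3.3. Genes were counted at 4-fold or more with a minimum of 1 FPKM in the higher tissue, and a gene listed at 0 in the other tissue was counted as past the limit without a printed ratio. The alternatives were no centring, another centring set, 1 FPKM added, other minimums and limits, and the second culm table. The counting was checked on simulated data, with planted 8-fold changes and small noise in genes with at least 1 FPKM in both tissues. That check covers the arithmetic alone and not calls that rest on values near 0. Genes and lists were chosen with earlier results of these data known. Named genes were the 10 highest and 10 lowest centred ratios among genes above 0 in both tissues with at least 10 FPKM in the higher, the 10 most abundant of each tissue, all of 13 lists by gene ID (1 housekeeping gene is not reported here), and of each keyword class the most abundant and the 2 at either end. The keywords for cyclins, invertases and seed proteins were narrowed after the first matches were seen. Genes in runs or in 1 table alone, apart from list members, were named after their values were seen. Gene IDs were used as listed, since 0 of 26168 were found in the RefSeq table at hand, and no sequence is shown.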

Additional observations from a re-analysis of the deposited data

Results flagged for a closer look

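LOC_Os01g47780, a fasciclin domain gene of the arabinogalactan class, was past 4-fold in opposite directions in the 2 pairs of culm and shoot. It had 21.1 FPKM in the wild-type culm and 3.32 in the wild-type shoot, a centred log2 ratio of 2.29, and 44.2 FPKM in mir156abckl culm and 172 in mir156abcdfghikl shoot, a centred log2 ratio of -2.03. Each value is 1 FPKM per group, and the difference between the pairs was not tested.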

How the results depend on the processing

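The counts of genes past the limit depended on the limits more than on the source of the culm values. Genes higher in the wild-type culm numbered 1815 as reported, 877 with 1 FPKM added to both tissues after centring, 859 with a minimum of 10 FPKM in the higher tissue, 4356 at 2-fold and 917 at 8-fold, and lower genes numbered 2276 as reported, 1816, 1860, 4394 and 1238 under the same settings. With 1 FPKM added, or with the higher minimum, the share of higher genes among those past the limit was 32.6% or 31.6%, against 44.4% as reported and 58.1% without centring. Culm values from the mir156defghi table, in which the same wild-type culm had a median of 0.994 times its value in the other table, gave 1814 and 2227. The rank correlation was 0.715 over all listed genes and 0.684 with those values. With 1 FPKM added, list medians moved by less than 0.529 on the log2 scale, except that of GRF genes, which was 0.988. The value 0.529 is the SD of the log2 ratio between mir156defghi and wild-type culm. Without centring every ratio shifts by 0.38, and the second culm table holds the same wild-type culm. These 2 settings could therefore not move a median past 0.529 and say nothing on how firm the medians are. Of 170 named genes past 4-fold, 165 remained past it with 1 FPKM added and 168 without centring. That 0 turned to the opposite sign is no support, since neither setting can turn the sign of a gene past 4-fold. The sizes of the ratios held less well. With 1 FPKM added, 85 named genes were counted as moved and 221 as the same, so the largest ratios, which rest on values near 0, are uncertain in size. No paired analysis was possible because each table gives 1 value per group, and for the same reason no repeat could be left out. Levels near 0 FPKM cannot be judged without the depth.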

Other observations

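Further classes had values on each side. Of 164 cytochrome P450 genes, 25 were higher in the wild-type culm (15.2%) and 37 lower (22.6%), beside 8.66% and 10.9% of all genes. LOC_Os03g37290 had 27.9 FPKM in the wild-type culm and 0.23 in the wild-type shoot, and LOC_Os06g01250, the most abundant of the shoot, 8.25 and 556 FPKM. Of 52 wall-associated kinase genes, 1 was higher (1.92%) and 7 lower (13.5%), with a median of -0.11. In the mutant pair, by contrast, 9 were higher and 0 lower, beside 5.7% and 6.48% of all genes in that pair. Of 25 aquaporin genes, which pass water through membranes, 2 were higher and 2 lower (8% each), near the shares of all genes. LOC_Os02g44080 had 35.1 FPKM in the culm and 0.822 in the shoot, and LOC_Os01g74450 had 5.18 and 65.4. Among heat shock genes, 7 of 106 were higher (6.6%) and 13 lower (12.3%), also near those shares. The small heat shock gene LOC_Os10g07200 had 22.3 and 1.02 FPKM, and LOC_Os12g31460, a DnaJ gene, had 1.08 and 109 FPKM.

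The NAC genes LOC_Os11g03300 and LOC_Os12g03040 had 22.3 and 18.1 FPKM in the wild-type culm, against 1.56 and 1.5 in the wild-type shoot. They lie on chromosomes 11 and 12, whose ends are known to carry near-identical copies, so these values are uncertain. Their levels differed between the mutant culms, with 3.56 and 3.18 FPKM in mir156abckl and 52.6 and 42.6 in mir156defghi. By locus span in the files, introns included, the higher genes had a median of 2.59 kb and the lower genes 2.76 kb, beside 3.49 kb over all compared genes.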
